A study of Mus musculus with 4 samples.

Results

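The 10 genes described here encode the CD28 family of T-cell receptors and the inhibitory checkpoint receptors studied beside it: Cd28, Ctla4, Icos, Pdcd1, Lag3, Havcr2, Tigit, Cd226, Cd96 and Vsir. They were chosen by gene name and not by a threshold on a measured value, although earlier results of these data were known. All 10 were found among the 50600 genes listed for each library. The libraries were 4 bulk RNA-seq libraries, numbered as biological replicates, of primary T cells from C57BL/6NJ mice, and they form 1 group with no treated or untreated partner. The file headers name the cells mmTh0, activated in bulk for 72 h, and the linked differentiation protocol is named for CD4+ T cells. Age is given as unknown, sex was not collected, and all 4 libraries carry 1 donor identifier.

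T cells need a second signal beside the antigen receptor. CD28 gives it when it binds CD80 or CD86 on the partner cell, and recruits lipid kinase and adaptor proteins. CTLA-4 binds the same ligands more tightly and withholds or removes them, while ICOS, a relative of CD28 that appears after activation, binds its own ligand and sustains helper T cells. PD-1, encoded by Pdcd1, recruits phosphatases that dampen receptor and CD28 signals. TIGIT and CD96 share poliovirus-receptor-like ligands with the activating receptor CD226, LAG-3 binds MHC class II as CD4 does, and TIM-3, encoded by Havcr2, is best known from interferon-producing and exhausted T cells. VISTA, encoded by Vsir, is found on naive T cells and on myeloid cells.

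Each library held 49613182 to 94222415 counted read pairs. Levels are given as TPM, the count divided by the gene's summed exon length and scaled to the same sum in every library, as mean ± SD over the 4 libraries unless stated. Defining T-cell genes were present, with Cd4 at 1056 ± 62.8, Cd3e at 272 ± 15.5 and Trac at 1768 ± 84.7 TPM, whereas of the CD8 co-receptor genes Cd8a stood at 0.190 ± 0.0957 TPM and Cd8b1 at 15.8 ± 2.38 TPM. The X-inactivation RNA Xist was at 332, 150.1, 0.877 and 0.392 TPM across replicates 1 to 4, while the Y-linked gene Ddx3y had 3, 7, 3546 and 6620 counts. Xist is made by female cells and Ddx3y by male cells, so the 4 libraries did not share 1 animal as their only source, although the labels give 1 donor; how many animals there were is not stated. No pair of libraries was a repeat deposit, since the chi-square per degree of freedom between their counts was at least 20.5. In bulk RNA, fewer cells that express a gene and less RNA per cell cannot be told apart.

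Of the 10 receptor genes, 9 were abundant and 1 was nearly silent. Ctla4, Pdcd1, Tigit, Icos, Cd28, Cd226, Lag3, Vsir and Cd96 each reached 1 TPM, the level called detected, in every library, and Havcr2 did so in none. Among all 21764 protein-coding genes 49.4% were detected by this rule. A level of at least 100 TPM in every library was reached by 8 receptor genes, against 9.26% of protein-coding genes. The median of the mean levels was 174 TPM for the 10 genes, 1.21 TPM for all protein-coding genes and 34.8 TPM for the detected ones.

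**Figure D1:**
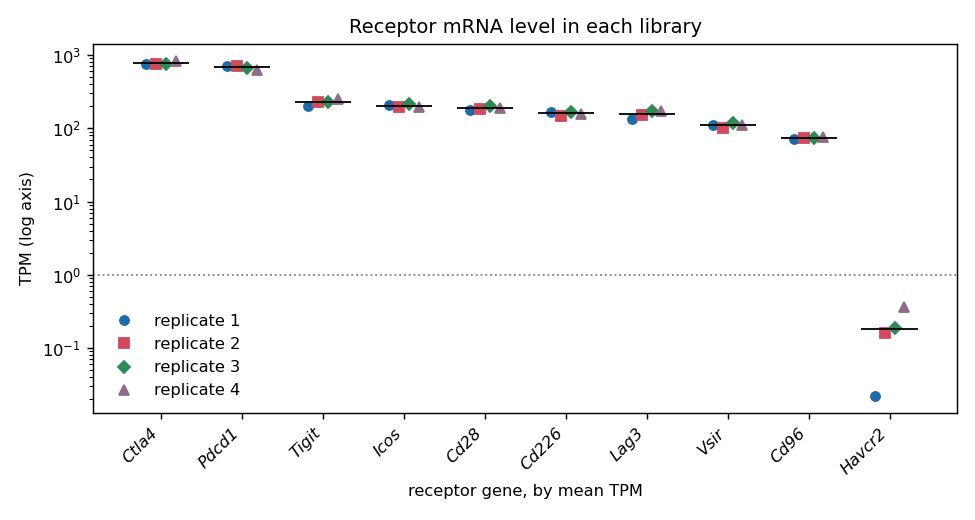
TPM of the 10 receptor genes on a log axis, with 1 symbol per library, a black bar at the mean and a dotted line at 1 TPM. Ctla4 and Pdcd1 lie at 635 TPM and above, 7 genes lie between 71.8 and 249 TPM, and Havcr2 lies at 0.357 TPM and below.

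Ctla4, the high-affinity inhibitory receptor for CD80 and CD86, stood at 749, 763, 754 and 838 TPM in replicates 1 to 4, from 24465 to 54217 counts. Replicate 4 was the highest, and in TPM the other 3 lay close together. The mean of 776 ± 41.5 TPM placed it at rank 137 of the protein-coding genes. Foxp3, which marks regulatory T cells that carry CTLA-4 constitutively, stood at 2.36, 3.54, 3.49 and 1.58 TPM, lowest in the library where Ctla4 was highest; the part of such cells in the Ctla4 level was not tested.

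Pdcd1, which encodes PD-1, stood at 717, 709, 669.8 and 635 TPM in replicates 1 to 4. Replicates 1 and 2 were the higher pair, and the highest library was 1.13 times the lowest. Its mean of 683 ± 37.9 TPM gave it rank 172. Within each library Ctla4 was the higher of these leading genes, by 1.05, 1.08, 1.13 and 1.32 times. The ranges of both genes did not overlap, but without replicate 4 the mean difference in log2(TPM + 1) was 0.11, against 0.18 ± 0.15 with all 4 libraries. It was 0.46 in log2(CPM + 1), which is scaled by TMM and not divided by length.

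Havcr2 (ENSMUSG00000020399, chromosome 11, 46454935 to 46481255, plus strand), which encodes TIM-3, had 1, 7, 7 and 27 counts in replicates 1 to 4, or 0.0219, 0.159, 0.185 and 0.357 TPM. Replicate 4 was the highest and replicate 1 was below the level of 3 counts, the floor taken here for a single library. The mean of 0.181 ± 0.138 TPM placed it at rank 12552. Havcr2 minus Pdcd1 came to -9.18 ± 0.24 on the log2(TPM + 1) scale and was negative in all 4 libraries; the pseudocount of 1 understates this gap because Havcr2 itself lies below 1. The other TIM-family genes of the mouse were low too. Havcr1 had 1 count in replicate 4 alone, Timd4 had 0 counts in each library, so that its level could be up to 0.0991 TPM (3 counts, an allowance for counting error only), and Timd2 stood at 1.08 ± 0.257 TPM. The flanking gene Med7, a Mediator subunit, lies 12213 bases from Havcr2 and stood at 24.0 ± 0.192 TPM.

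The sequences around the start sites of the 3 members of highest mean TPM and of Havcr2 are shown so that the near-silent gene can be set beside the abundant ones. The windows are from RefSeq on GRCm38.p6, the patch release of mm10, and hold 250 bases before the start site and 50 from it on, 5′ to 3′ on the gene's strand. Tigit holds the third place only with the exon lengths of the files, and takes the fourth place with the longest transcript as length and the eighth in CPM. RefSeq windows were matched for 6 of the 10 genes. The start sites of Pdcd1 and Tigit fall on the first base of the gene in the files and that of Havcr2 lies 4 bases before it, whereas the Ctla4 start lies 22025 bases inside the gene, whose model in the files has exons further upstream. Capitals mark every match, on either strand, to GGAAA, the core bound by NFAT and other factors, to TGANTCA, the AP-1 element, and to TATAAA, the TATA box.

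Ctla4 (mm10, plus strand, chr1:60908775-60909074): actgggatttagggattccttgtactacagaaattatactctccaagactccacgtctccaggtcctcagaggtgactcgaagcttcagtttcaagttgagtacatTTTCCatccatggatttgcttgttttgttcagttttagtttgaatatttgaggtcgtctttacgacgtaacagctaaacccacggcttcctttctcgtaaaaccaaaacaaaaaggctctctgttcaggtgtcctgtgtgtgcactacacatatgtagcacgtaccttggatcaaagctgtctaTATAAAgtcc
Pdcd1 (mm10, minus strand, chr1:94052504-94052803): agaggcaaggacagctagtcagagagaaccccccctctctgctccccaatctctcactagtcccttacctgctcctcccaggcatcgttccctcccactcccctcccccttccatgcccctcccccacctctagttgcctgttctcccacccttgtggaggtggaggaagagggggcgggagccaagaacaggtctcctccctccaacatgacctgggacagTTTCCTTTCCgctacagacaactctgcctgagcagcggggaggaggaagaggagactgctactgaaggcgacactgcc
Tigit (mm10, minus strand, chr16:43664135-43664434): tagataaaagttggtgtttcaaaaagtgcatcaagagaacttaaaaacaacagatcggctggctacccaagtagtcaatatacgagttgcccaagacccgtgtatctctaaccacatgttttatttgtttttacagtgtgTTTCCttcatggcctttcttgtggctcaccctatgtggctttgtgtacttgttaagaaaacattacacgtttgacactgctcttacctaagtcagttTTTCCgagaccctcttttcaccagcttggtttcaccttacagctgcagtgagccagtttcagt
Havcr2 (mm10, plus strand, chr11:46454681-46454980): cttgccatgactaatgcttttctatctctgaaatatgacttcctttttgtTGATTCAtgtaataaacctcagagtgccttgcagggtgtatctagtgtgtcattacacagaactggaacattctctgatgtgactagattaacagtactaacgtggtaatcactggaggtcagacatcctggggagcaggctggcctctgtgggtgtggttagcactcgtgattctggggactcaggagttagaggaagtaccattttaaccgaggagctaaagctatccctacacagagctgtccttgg

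The Ctla4 window held 1 GGAAA match and 1 TATAAA match, of which the TATAAA lies after the start site. Pdcd1 and Tigit held 2 GGAAA matches each, those of Pdcd1 side by side, and neither of the other motifs. Havcr2 held 1 TGANTCA match, which reads TGATTCA, and no GGAAA match. Over 27025 genes with 1 window each, 61.3% held GGAAA, 7.93% held TGANTCA and 14.2% held TATAAA. Of the windows not printed, that of Cd96 held 5 GGAAA matches and 1 TATAAA match, and that of Vsir held none of the 3 motifs. A match describes letters in the window and does not show binding.

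The costimulatory members Icos and Cd28 stood next to each other. Icos stood at 211, 197, 214 and 198 TPM in replicates 1 to 4, with replicates 1 and 3 the higher ones. Cd28 stood at 177, 183, 200.4 and 189 TPM, lowest in replicate 1. The means were 205 ± 8.81 TPM for Icos and 187 ± 9.95 TPM for Cd28, and the ranges overlapped. Icos was nonetheless above Cd28 in 4 of 4 libraries, by 0.13 ± 0.08 in log2(TPM + 1). This small difference turned on gene length. Cd28 has 6122 summed exon bases and Icos 3430, so Icos minus Cd28 was -0.70 in log2(CPM + 1), which is not divided by length, and -0.28 in log2(TPM + 1) with the longest annotated transcript as length.

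Ctla4 exceeded Cd28, the receptor with which it competes for ligand, by 4.23, 4.17, 3.76 and 4.44 times in replicates 1 to 4. The ratio was lowest in replicate 3, where Cd28 was highest, and the mean difference was 2.05 ± 0.10 in log2(TPM + 1). Much of this size rests on gene length, with 2330 exon bases in Ctla4 and 6122 in Cd28, and in log2(CPM + 1) the difference was 0.66. Icos minus Ctla4 was -1.91 ± 0.12 on the same scale and negative in all 4 libraries. With 4 libraries, the smallest p of the exact two-sided test that flips signs of the differences is 2 of 16 patterns. Each of the 8 gene pairs examined reached it, and none could pass a threshold of 0.05.

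**Figure D2:**
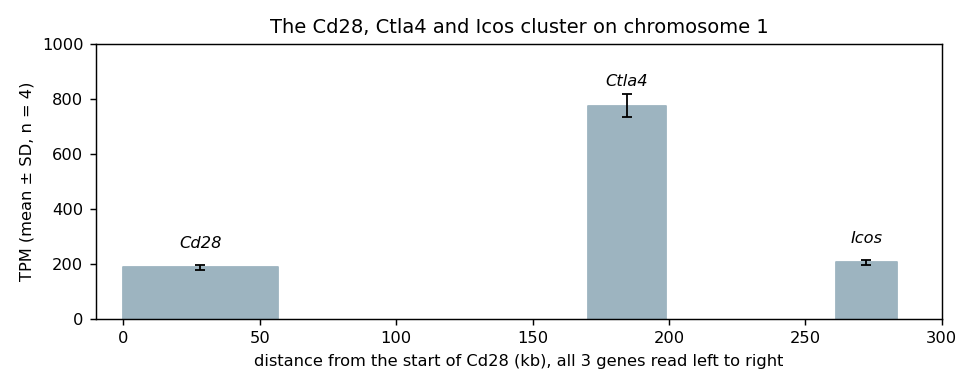
Mean TPM with SD over the 4 libraries (vertical axis) for Cd28, Ctla4 and Icos, each drawn over its span in kb from the start of Cd28 (horizontal axis, to scale). Ctla4, at 776 TPM, lies between Cd28 at 187 and Icos at 205 TPM.

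These 3 genes adjoin on chromosome 1, all on the plus strand. Cd28 (ENSMUSG00000026012) spans 60716800 to 60773359 in mm10, Ctla4 (ENSMUSG00000026011) 60887000 to 60915832 and Icos (ENSMUSG00000026009) 60977927 to 61000320. No other protein-coding gene lay in the gaps of 113640 and 62094 bases. The flanking genes outside the cluster were much lower: Raph1, an actin regulator on the Cd28 side, stood at 13.7 ± 2.26 TPM, and Pard3b, a cell-polarity gene on the Icos side, at 0.576 ± 0.0730 TPM. Pdcd1 (ENSMUSG00000026285) lies apart on the same chromosome, from 94038305 to 94052553 on the minus strand. Its neighbour Neu4, a sialidase gene 9970 bases away, had 0 TPM in all libraries, and Fam174a on the other side stood at 13.4 ± 0.662 TPM.

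The receptors that share nectin-like ligands were all expressed. Tigit, which encodes an inhibitory receptor, stood at 204, 232, 225 and 249 TPM in replicates 1 to 4, lowest in replicate 1, with a mean of 228 ± 18.4 TPM. Cd226, the activating receptor also called DNAM-1, stood at 165, 149.6, 168 and 158 TPM, lowest in replicate 2, with a mean of 160.2 ± 8.14 TPM. Cd96, a receptor described as inhibitory in mouse lymphocytes, stood at 71.8, 73.4, 74.9 and 77.3 TPM, with a mean of 74.35 ± 2.33 TPM. Its coefficient of variation of 3.13% in TPM was the smallest of the 9 detected members. In CPM Icos, at 200.6 to 206.5, spread less for its level than Cd96, at 44.77 to 49.92.

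Tigit exceeded Cd226 by 1.24, 1.55, 1.34 and 1.57 times in replicates 1 to 4. The mean difference was 0.50 ± 0.17 in log2(TPM + 1) and positive in all 4 libraries. It turned to -0.78 in log2(CPM + 1), without division by length, since Tigit has only 963 exon bases in the files and Cd226 has 2357. Cd96 was lower than Cd226 in every library, with a difference of -1.10 ± 0.09 on the log2(TPM + 1) scale. The level of Cd226 depends on the gene model as well. With the longest transcript of the later annotation, of 4494 bases, as length it was 66.8 ± 3.43 TPM, which placed it below Vsir and above Cd96. With that length Cd96 minus Cd226 was only -0.17 and Tigit minus Cd226 was 1.49.

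Tigit (ENSMUSG00000071552) and Cd96 (ENSMUSG00000022657) lie on chromosome 16, on the minus strand, at 43648861 to 43664184 and 46035657 to 46120251 in mm10. Both stood well above the genes beside them. The flanking genes of Tigit were the transcription factor gene Zbtb20, 6258 bases away at 0.785 ± 0.188 TPM, and the dopamine receptor gene Drd3 at 0.320 ± 0.131 TPM. Cd226 (ENSMUSG00000034028) lies on chromosome 18, plus strand, at 89197431 to 89270201. Next to Cd96 were Plcxd2 at 12.8 ± 1.94 TPM and Gm4737 at 2.06 ± 0.269 TPM.

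Lag3, whose product binds MHC class II, stood at 135, 151, 173 and 173 TPM in replicates 1 to 4. Replicates 3 and 4 lay above replicates 1 and 2, the same libraries that Xist and Ddx3y set apart. Cd28 and Cd96 were likewise higher in replicates 3 and 4 and Pdcd1 was lower there, so that 4 of the 9 detected members had ranges that did not overlap between these pairs of libraries, a count made after seeing the data. Among all detected protein-coding genes 30.8% did so, and the part of the animals' sex in these values was not tested. Which members did so depended on the scaling. In CPM the Cd96 values overlapped, at 44.77 and 48.58 in replicates 1 and 2 against 45.91 and 49.92. Those of Vsir did not overlap in CPM, at 160.4 and 154.5 against 167.3 and 163.4. The mean of Lag3 was 158 ± 18.4 TPM, close to that of Cd226. The order of Lag3 and Cd226 changed between libraries, with Cd226 higher in 1 of 4. This closeness depends on the exon lengths of the files. In CPM Cd226 was higher in 4 of 4 libraries, with means of 109.8 and 97.18 for Lag3. With the longest transcript as length Lag3 was higher, at 132.7 TPM against 66.83 TPM for Cd226. Lag3 (ENSMUSG00000030124, chromosome 6, 124904361 to 124911705, minus strand) lies 16139 bases from Cd4, the gene of the other MHC class II receptor. Its level was 0.126, 0.155, 0.153 and 0.165 of the Cd4 level, lowest in replicate 1. Lag3 minus Cd4 was -2.74 ± 0.17 in log2(TPM + 1) and -3.67 in log2(CPM + 1). Ptms, a parathymosin gene 1975 bases on the other side, stood at 255 ± 15.7 TPM.

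Vsir (ENSMUSG00000020101, chromosome 10, 60346851 to 60372684, plus strand) stood at 112, 102, 119 and 110.2 TPM in replicates 1 to 4, lowest in replicate 2, with a mean of 111 ± 7.07 TPM. It overlaps the cadherin gene Cdh23, on the opposite strand, but the exons of these genes share no base and Cdh23 stood at 0.646 TPM. No member shared an exon base with another gene in the files. Vsir and several ligands are also genes of antigen-presenting cells, so markers of those cells are given here. Of the 5 macrophage and monocyte markers 1 was detected, Adgre1 at 3.21 ± 0.525 TPM, while Lyz2, Itgam, Csf1r and Fcgr1 had at most 8 counts in any library. Of the 4 dendritic cell markers 1 was detected, Zbtb46 at 3.35 ± 0.565 TPM, and Itgax had 2 counts in replicate 2 alone. Summed over each list the markers came to 2.71 to 3.89 TPM and 3.02 to 4.41 TPM per library. The B-cell markers described below summed to 3.27 to 5.08 TPM. The part of antigen-presenting cells in the Vsir and ligand levels was not tested.

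Of the neighbours in the order of mean TPM, 3 pairs had overlapping ranges over the libraries: Tigit and Icos, Icos and Cd28, and Cd226 and Lag3. The other 6 neighbouring pairs did not overlap and kept their order in 4 of 4 libraries. The largest step among detected genes was that from Pdcd1 to Tigit, 3.00 times by the means. Without division by length the leading pair was the same, at 527 CPM for Ctla4 and 384 CPM for Pdcd1, but Cd28 followed at 334 CPM, Vsir stood above Lag3 in 4 of 4 libraries, and Tigit dropped to the eighth place at 63.9 CPM.

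**Figure D3:**
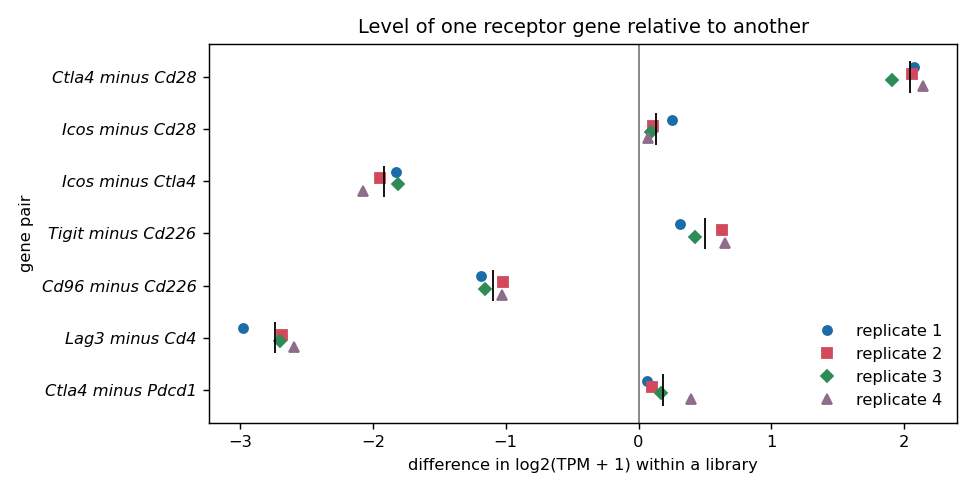
Difference in log2(TPM + 1) between paired genes within a library (horizontal axis), with 1 symbol per library and a black bar at the mean, for 7 of the 8 pairs (vertical axis; Havcr2 minus Pdcd1 lies off this scale at -9.18). Every pair keeps its sign in all 4 libraries, and Ctla4 minus Pdcd1 in replicate 4, at 0.40, stands to the right of the other 3 libraries.

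The 10 levels summed to 2543, 2560.2, 2599 and 2627 TPM in replicates 1 to 4, a mean of 2582 ± 38.0 TPM. Ctla4 alone made up 30.0 ± 1.27% of that sum and Pdcd1 26.5 ± 1.85%. The CD28 family as counted here, Cd28, Icos, Ctla4 and Pdcd1, took 71.7 ± 1.11%. The activating members Cd28, Icos and Cd226 together took 21.4 ± 0.839% of the summed TPM, and 33.6 ± 0.938% of the summed counts, which are not divided by length. The summed level of the CD28 family ran from 1838 to 1859 TPM, although in replicate 4 Ctla4 was at its highest and Pdcd1 at its lowest. This narrow range belongs to the TPM scale. In CPM Ctla4, Pdcd1 and Cd28 stood at 498.3, 394.9 and 309.5 in replicate 1 and higher, at 538.6, 414.9 and 339.1, in replicate 2. Icos stood at 206.5 and 204.8 CPM in these libraries. Shares of RNA do not give shares of surface protein.

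To ask whether any receptor gene varied over the 4 libraries more than its abundance would give, edgeR was run on the 13681 genes left by its filter on low counts. Its p-values speak of spread among the libraries alone. Across all genes 0.687% were called at an adjusted p under 0.05. Of the 9 members tested none was called, and Havcr2 did not pass the filter. Lag3 alone had an unadjusted p under 0.05, with an adjusted p of 0.70 in edgeR and its highest library 1.28 times its lowest. DESeq2's search for dispersion outliers named none of the 9 either. The other 8 members had an adjusted p of at least 0.98 in edgeR.

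**Figure D4:**
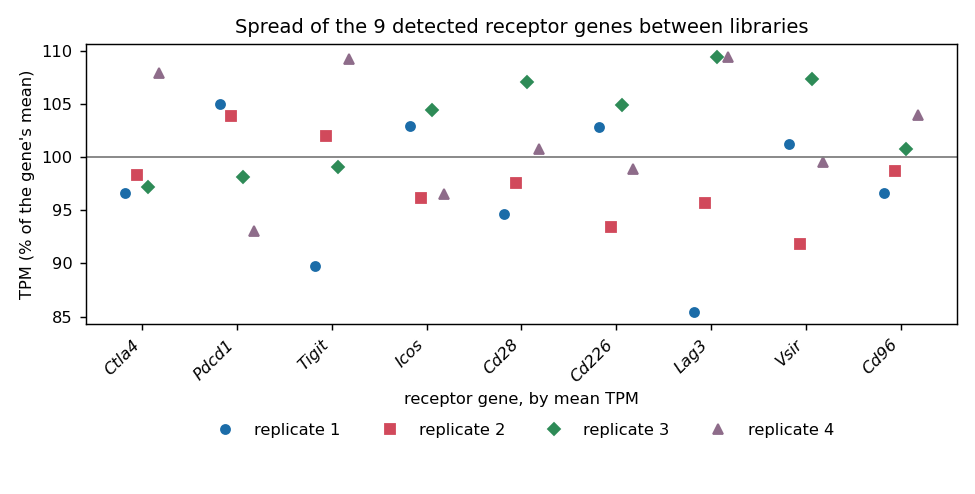
TPM of each detected receptor gene in each library as a percentage of that gene's mean (vertical axis, which does not start at 0), in the order of the means. On this TPM scale Lag3 spreads most, from 135 TPM in replicate 1 to 173 TPM in replicates 3 and 4. Cd96 spreads least, from 71.8 to 77.3 TPM.

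The coefficients of variation of the detected members ran from 3.13% to 11.6%, against a median of 7.94% over the detected protein-coding genes. Counting error alone would give 0.566% to 1.88%. For Havcr2 the observed coefficient was 76.1%. The counting error worked out from its own few counts was 57.5%, a value set mostly by the 1 count in replicate 1. How much of the Havcr2 spread is counting error was not tested.

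Transcripts of several ligands of these receptors were present in the same libraries, and whether the same cells made both was not tested. Of 16 ligand genes 11 were detected in every library, with a median of 9.70 TPM over the list, beside the 49.4% and 1.21 TPM of all protein-coding genes given above. None of the 14 that passed the filter was called variable by edgeR.

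**Figure D5:**
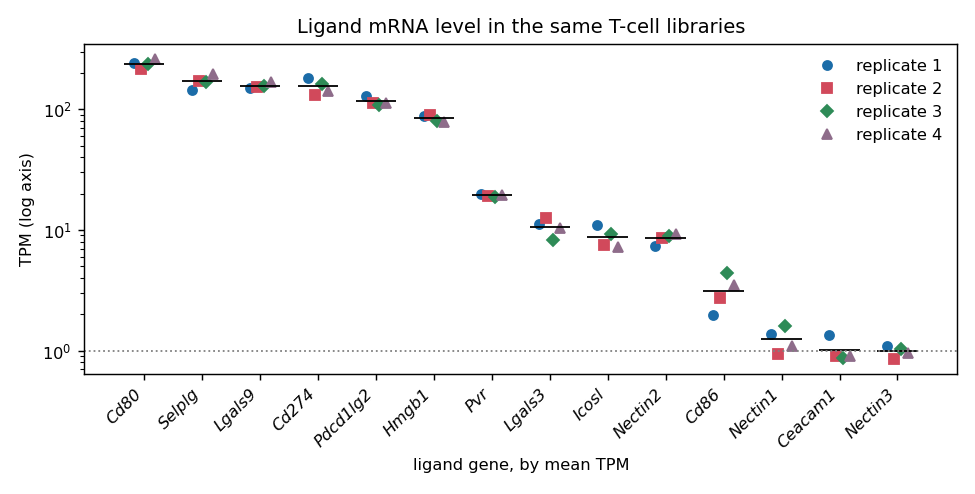
TPM of the 14 ligand genes with any count, on a log axis, with 1 symbol per library, a black bar at the mean and a dotted line at 1 TPM. Cd80, Selplg, Lgals9, Cd274, Pdcd1lg2 and Hmgb1 stand at 78.6 TPM and above in every library, and the other 8 stand at 19.9 TPM and below.

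Of the ligands that CD28 and CTLA-4 share, Cd80 was at 243, 215, 236 and 262 TPM over replicates 1 to 4, and Cd86 was at 1.99, 2.72, 4.35 and 3.51 TPM. Cd80 was thus the ligand gene of highest mean level in the list, at 239 ± 19.2 TPM, while Cd86 stood at 3.14 ± 1.02 TPM. Icosl, the ICOS ligand, stood at 8.76 ± 1.79 TPM. Both PD-1 ligand genes were expressed. Cd274, which encodes PD-L1, stood at 181, 132, 164 and 143 TPM, and Pdcd1lg2, which encodes PD-L2, at 130.3, 113, 109.5 and 112 TPM, highest in replicate 1 in both cases. Their means were 155 ± 21.7 TPM and 116 ± 9.48 TPM.

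Among the ligands of TIGIT, CD226 and CD96, the poliovirus receptor gene Pvr stood at 19.4 ± 0.519 TPM and Nectin2 at 8.51 ± 0.848 TPM. Nectin1, a ligand of CD96 in the mouse, stood at 1.25 ± 0.298 TPM and Nectin3 at 0.982 ± 0.103 TPM, and neither reached 1 TPM in every library. Fgl1, a LAG-3 ligand made in the liver, and Igsf11, a VISTA ligand, were without a count in any library, with upper limits of 0.0486 and 0.0479 TPM at 3 counts. Lgals3, a galectin gene also tied to LAG-3, stood at 10.6 ± 1.79 TPM. Of the genes tied to TIM-3, Lgals9 stood at 157 ± 8.32 TPM, Hmgb1 at 84.1 ± 5.69 TPM and Ceacam1 at 1.00 ± 0.222 TPM, so that the first of these was abundant while the receptor gene was nearly silent. Selplg, which encodes PSGL-1, an acid-dependent VISTA ligand, stood at 170.3 ± 20.2 TPM.

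Of 13 other co-receptor genes 6 were detected, beside 49.4% of all protein-coding genes, and 2 of the 6 were abundant. Cd200, a ligand-like inhibitory surface protein, stood at 659 ± 23.6 TPM and Btla, an inhibitory relative of the CD28 family, at 427 ± 32.4 TPM. Crtam, a nectin-like receptor, stood at 5.14 ± 0.576 TPM, Cd160 at 3.39 ± 0.865 TPM, Cd101 at 3.02 ± 0.623 TPM and Cd200r1, the receptor for CD200, at 2.26 ± 0.377 TPM. The killer-lectin gene Klrg1 had 0 to 6 counts per library, Lair1 0 to 5 counts, and Cd244a 16 to 54. Pvrig, a further receptor for nectin-2, was without a count, with an upper limit of 0.199 TPM. At a threshold of 5 TPM only Cd200 and Btla were left.

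The listed signalling genes downstream of these receptors were all detected, beside 49.4% of all protein-coding genes. All 12 costimulatory signalling genes were detected, with a median of 151 TPM, led by the kinase gene Lck at 780.5 ± 9.10 TPM. Pik3cd, a lipid kinase subunit gene, stood at 286 ± 19.5 TPM. All 11 inhibitory signalling genes were detected, with a median of 144 TPM. Ptpn6, which encodes SHP-1, stood at 605 ± 21.3 TPM, the phosphatase 2A scaffold gene Ppp2r1a at 372 ± 23.0 TPM and Csk, the kinase that restrains LCK, at 359 ± 12.5 TPM. Ptpn11, which encodes SHP-2, the phosphatase that PD-1 recruits, stood at 183 ± 19.8 TPM. Bag6, whose product binds the tail of TIM-3, stood at 220.2 ± 14.6 TPM.

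All 14 genes of surface turnover and mRNA control were detected too, beside 49.4% of all protein-coding genes, with a median of 97.5 TPM. Def6, a partner of LRBA in CTLA-4 recycling, stood at 271 ± 11.9 TPM and Lrba itself at 25.7 ± 3.50 TPM. Adam10, which with Adam17 cleaves LAG-3 from the surface, stood at 213 ± 23.2 TPM and Cmtm6, which protects PD-L1 from degradation, at 164 ± 10.6 TPM. Rc3h1, which encodes the Roquin protein that represses Icos mRNA, stood at 41.6 ± 4.58 TPM.

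Of 7 transcription regulators described for these genes 6 were detected, beside 49.4% of all protein-coding genes, with a median of 3.92 TPM. Nfatc1, which drives Pdcd1 after receptor signalling, stood at 187 ± 17.2 TPM, Tox, which sustains PD-1 in exhausted cells, at 37.5 ± 3.66 TPM and Foxo1 at 37.1 ± 2.90 TPM. Prdm1, which encodes BLIMP-1, had 0, 4, 4 and 7 counts in replicates 1 to 4. Tbx21, whose product activates Havcr2 in mouse Th1 cells, stood at 3.92 ± 0.869 TPM and Eomes at 3.45 ± 1.08 TPM.

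Over the 4 libraries the protein-coding genes nearest in level to the leading members were Sh3bgrl3 and Tubb4b for Ctla4, Ywhae and Cd200 for Pdcd1, and Myl12b and Rbm38 for Tigit. Likeness was the root mean square difference in log2(TPM + 1), which was 0.0501 and 0.0558, 0.0560 and 0.0584, and 0.0600 and 0.0697 for these pairs. It mostly matches level and says nothing of shared control.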

How the data were processed

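The authors ran featureCounts 1.4.6-p4, per the file headers, on read pairs with both ends mapped and reverse strand sense, and summed the exons of each gene in GENCODE mouse release 13. The deposited values are raw counts, 1 table per library, and each table gives the summed exon length per gene. The build is mm10 per the labels. The aligner's version is not given in the sources used here. Gene symbols were taken from GENCODE mouse release 21 by identifier, version dropped, for 50376 of 50600 genes.

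TPM was computed from the counts and exon lengths over all genes. Spread between libraries was tested on all genes in edgeR 4.0.16 (R 4.3.3) with filterByExpr, TMM factors, trended dispersions and only an intercept. The residual deviance was set against chi-square with 3 degrees of freedom, adjusted by Benjamini-Hochberg. The step was tested on simulated data with planted changes that were all larger than the range of any member tested. Recovery of changes as small as those of the members was therefore not examined. DESeq2 1.42.0 was an alternative. CPM, used as an alternative, is scaled by TMM. Gene pairs were compared by exact enumeration of the 16 sign patterns of their within-library differences, two-sided. Python 3.11.15, numpy 2.4.6, pandas 2.3.3 and matplotlib 3.10.9 were used. Depth of 49613182 to 94222415 counts per library limits single genes by counting error only.

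The members, lists and pairs were chosen with earlier results of these data known. Named are all members, all ligands, of each other list the first, the 3 highest and those under 1 TPM in some library, the flanking protein-coding genes, and the 2 genes nearest in level to the 3 leading members. 1 gene that this rule names is not reported here. Some other genes, such as Rc3h1, were named for their role. Protein sequences were not used here.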

Additional observations from a re-analysis of the deposited data

Results flagged for a closer look

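Of 34 results over 4 libraries, 3 had 1 library far from the others by Dixon's criterion, which flags about 1 in 20 groups by chance. The ligand genes Fgl1 and Igsf11, without a count in any library, are among the 34 but could not be flagged. Ctla4 stood at 838 TPM in replicate 4, with the other libraries between 749 and 763 TPM. In CPM replicate 4 was less far apart, with Ctla4 at 498.3, 538.6, 493.0 and 577.1 in replicates 1 to 4. The PD-L2 gene Pdcd1lg2 stood at 130.3 TPM in replicate 1, with the others between 109.5 and 113 TPM. The TIM-3 partner gene Ceacam1 stood at 1.33 TPM in replicate 1, with the others between 0.866 and 0.906 TPM. None of these genes was called variable by edgeR over all genes.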

How the results depend on the processing

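The 9 detected members were the same in number at TPM thresholds of 0.5 and 5, at 10 counts, over protein-coding genes and without any 1 replicate. Without division by length, Icos minus Cd28 turned to -0.70 and Tigit minus Cd226 to -0.78. With the longest transcript as length, an alternative added after seeing the data, Icos minus Cd28 turned to -0.28. The other 6 gene pairs kept their sign under every alternative run but not their size: Ctla4 minus Cd28 was 0.66, Ctla4 minus Pdcd1 0.46 and Lag3 minus Cd4 -3.67 without division by length, Cd96 minus Cd226 was -0.17 with the longest transcript, and Havcr2 minus Pdcd1 was -11.395 with a pseudocount of 0.1. The share of Ctla4 was 27.3% of counts and 33.7% with the longest transcript, against 30.0%. At 5 TPM, 2 other co-receptors (6 at 1 TPM) and 3 transcription regulators (6 at 1 TPM) were detected. No member was called variable under any of the 9 alternatives, while over all genes the calls were 94 in the analysis given, 617 with a common dispersion, 67 with no filter, 43 as DESeq2 outliers and 38 to 87 without 1 replicate. No paired comparison of conditions was possible because the labels give 1 group, and only genes were compared within a library.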

Other observations

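The remaining flanking genes were values outside the comparisons. Psap, which encodes the lysosomal protein prosaposin and lies 44253 bases from Vsir, stood at 306.5 ± 9.69 TPM, and Gm17455 on the other side at 0.119 ± 0.105 TPM. Rttn, a centriole gene 66417 bases from Cd226, stood at 25.8 ± 3.48 TPM and Dok6, an adaptor gene on the other side, at 0.141 ± 0.0616 TPM. Gm12169, 42956 bases from Havcr2, was above 0 in replicate 2 alone.

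Among 3 regulatory T-cell markers, Il2ra stood at 527 ± 24.1 TPM and Ikzf2 at 12.1 ± 2.52 TPM. None of these markers was called variable over all genes, and the smallest adjusted p among them in edgeR was 0.16, that of Ikzf2. Of 5 B-cell markers, Cd79b alone was detected, at 2.55 ± 0.850 TPM, and the summed list ran from 3.27 to 5.08 TPM per library. Of 5 natural killer cell markers, Eomes alone was detected, and Klra8 had 0 counts in all libraries.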
